A study of Mus musculus with 14 samples.

Results

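The 10 genes described here, of 24970 with a count, had large or steady falls in the livers of mice given a transplant of brown fat cells and fall outside the immune and matrix genes: Corin, Gprc5b, Ly6d, Fam83a, Sprr1a, Tnfrsf23, Kif21b, Clip2, Robo1 and Ccdc120. They were chosen on the very contrast of transplant against empty scaffold, so their values in it are a description and carry no test. All recipients were mice fed a high-fat diet, and RNA sequencing was done on liver. The transplant group (6 libraries) received silk scaffolds that carried pre-adipocytes of the stromal fraction of brown fat, already differentiated, with titles that read iBAT 2x, and the empty scaffold group (8 libraries) received scaffolds alone, which the titles call Sham-WT. Apart from the WT in those titles no genotype is given, and the strain, sex, age, length of the diet and time after transplantation are not stated in the labels used here either, nor is it stated that each library is a separate animal.

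The list holds surface proteins, cytoplasmic adaptors and microtubule proteins that are better known from tissues other than liver. Hepatocytes in obese mice store fat in droplets and turn on a program of lipid droplet and apolipoprotein genes, driven in part by the nuclear receptor PPARG, while the microtubule and guidance genes of the list are best known from neurons and migrating cells. In whole liver, a lower level of such a gene can come from fewer cells of the type that makes it or from less RNA per cell, and bulk libraries cannot tell these apart.

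The members were low in liver, and their levels in transplant libraries lay below most empty scaffold libraries. Most of them varied together from library to library, Corin, Robo1 and Kif21b less closely than the rest. The library totals ran from 19482580 to 28910968 estimated counts, and over all 14 libraries the members summed to 346 (Tnfrsf23) to 5209 (Ly6d) counts per gene. Per length, in TPM (a share of the library corrected for transcript length), Ly6d was the highest member, with 8.62 ± 6.17 TPM in transplant livers and 40.7 ± 26.6 TPM in empty scaffold livers (SD, n = 6 and 8). Sprr1a (0.356 ± 0.369 TPM in transplant and 3.37 ± 3.52 TPM in empty scaffold livers), Gprc5b (0.465 ± 0.304 TPM in transplant and 2.38 ± 1.13 TPM in empty scaffold livers) and Robo1 (0.586 ± 0.235 TPM in transplant and 2.01 ± 0.762 TPM in empty scaffold livers) came next, and the ranges of these 3 overlap each other in both groups. The other 6 averaged 0.0629 (Kif21b) to 0.295 TPM (Clip2) in transplant livers and 0.233 (Kif21b) to 1.02 TPM (Clip2) in empty scaffold livers.

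Levels of one gene between libraries are given below in CPM (counts divided by library size after TMM scaling). Differences are log2, transplant minus empty scaffold, and each is followed by its standard error from edgeR. All 10 members passed the filter on low counts, and their log2 differences ran from -2.75 (Sprr1a) to -1.22 (Robo1), with a median of -1.55 beside -0.02 over all 13127 genes tested. Every member was called lower at an adjusted p under 0.05 (edgeR quasi-likelihood test, Benjamini-Hochberg over all genes), as were 4.23% of all tested genes (3.31% were called higher), and the choice of members fixes that count. Ranked by log2 difference from the lowest, Sprr1a stood 1st among all tested genes, Corin 4, Gprc5b 5, Ly6d 9 and Robo1 81.

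**Figure D1:**
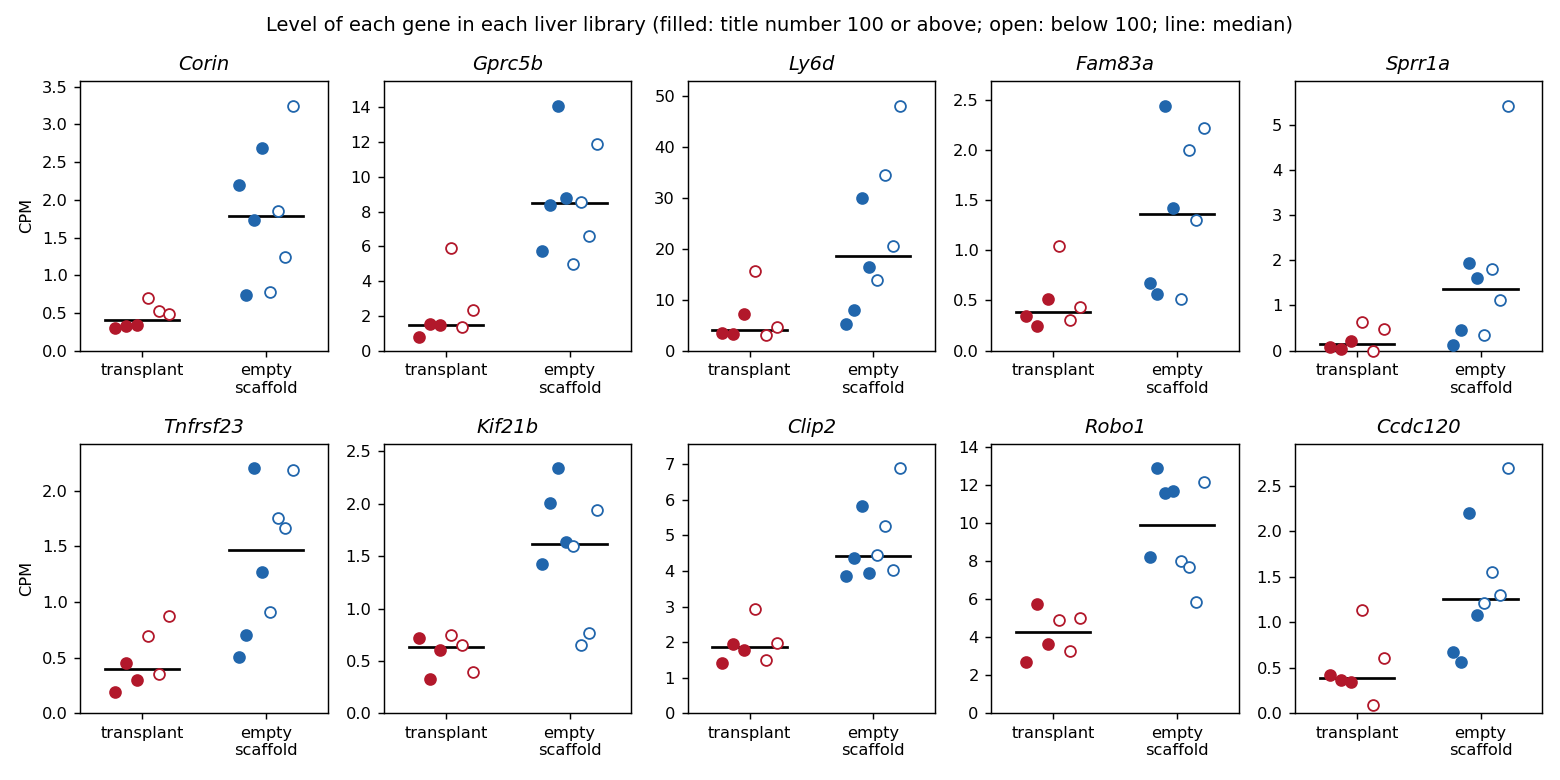
Level of each member in CPM (vertical axes, linear, each from 0) in each library, transplant at left and empty scaffold at right. Filled circles are samples whose titles carry a number of 100 or above, open circles those below 100, and lines are group medians. In Corin, Clip2 and Robo1 all 6 transplant libraries lie below all 8 empty scaffold libraries, and in 8 of the 10 panels transplant replicate 4 is the highest of the transplant libraries.

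Of the surface proteins, Corin is a membrane serine protease that activates atrial natriuretic peptide in the heart. It had 0.305, 0.413 and 0.694 CPM (lowest, median and highest) in transplant livers, against 0.739, 1.79 and 3.25 CPM in empty scaffold livers. The groups did not overlap, the empty scaffold libraries of replicates 2 and 5 were the lowest of that group, and the difference was -2.04 ± 0.35. These levels rest on 8 to 14 counts per transplant library and 18 to 87 per empty scaffold library. Of the 12 other tested genes of a list of membrane serine proteases and natriuretic peptide genes, none was called in either direction. Its liver-rich relatives hepsin (Hpn, 472 ± 32.4 CPM in transplant and 392 ± 44.6 CPM in empty scaffold livers, adjusted p = 0.0787) and Tmprss6, which tunes hepcidin (408 ± 55.0 CPM in transplant and 399 ± 38.7 CPM in empty scaffold livers, adjusted p = 0.846), did not pass the same edgeR test.

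Gprc5b is an orphan receptor of the class C family whose loss in mice is known to blunt diet-induced insulin resistance. Its levels were 0.763, 1.55, 1.46, 5.90, 1.35 and 2.36 CPM in transplant replicates 1 to 6, against 5.76, 8.38, 14.1, 8.77, 5.01, 8.57, 6.62 and 11.9 CPM in empty scaffold replicates 1 to 8. Transplant replicate 4 alone reached into the range of the empty scaffold libraries, above the lowest 2 of them, and the other 5 transplant libraries lay below all 8. The difference was -1.98 ± 0.37 over all libraries and -2.54 without transplant replicate 4. The related receptor Gprc5c had 54.3 ± 11.8 CPM in transplant and 54.9 ± 6.63 CPM in empty scaffold livers (log2 -0.02 ± 0.13, adjusted p = 0.941, edgeR), and Gprc5a was too low to be tested, at no more than 0.186 CPM in any library. Of the 31-base words of the Gprc5b transcripts, 12.4% also occur in transcripts of Iqck, read on either strand.

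Robo1 is a receptor for the SLIT guidance ligands. It had 2.71, 4.29 and 5.75 CPM in transplant livers, against 5.85, 9.90 and 12.9 CPM in empty scaffold livers (lowest, median and highest). The groups did not overlap, though the highest transplant library (replicate 2) and the lowest empty scaffold library (replicate 7) were nearly level, and the difference of -1.22 ± 0.20 was the smallest of the 10. Transcript Robo1-206 held 64.8% of the gene's counts and averaged 3.24 ± 1.18 CPM in transplant and 6.24 ± 1.42 CPM in empty scaffold livers, and Robo1-201, with 32.1%, averaged 0.843 ± 1.23 CPM in transplant and 3.25 ± 2.38 CPM in empty scaffold livers. Among 12 other tested genes of the SLIT and ROBO pathway, 2 fell and none rose (median log2 -0.33), beside 4.23% of all tested genes called lower. The 2 were Pak1, a kinase that acts on the actin skeleton (log2 -1.14 ± 0.28, adjusted p = 0.0298), and Srgap2, a GTPase-activating protein that binds ROBO receptors (-0.52 ± 0.14, adjusted p = 0.0397, edgeR over all genes). The receptors Robo2 (1.22 ± 0.448 CPM in transplant and 1.67 ± 0.666 CPM in empty scaffold livers, adjusted p = 0.249) and Robo4 of endothelium (3.75 ± 1.19 CPM in transplant and 4.38 ± 1.76 CPM in empty scaffold livers, adjusted p = 0.580) did not pass that test, and Robo3 was too low to be tested.

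Tnfrsf23 encodes a mouse decoy receptor for the death ligand TRAIL. It had 0.191, 0.449, 0.302, 0.694, 0.350 and 0.874 CPM in transplant replicates 1 to 6, against 0.509, 0.704, 2.20, 1.27, 0.907, 1.75, 1.66 and 2.18 CPM in empty scaffold replicates 1 to 8. The highest 2 transplant libraries (replicates 4 and 6) overlapped the lowest 2 empty scaffold libraries (replicates 1 and 2), and the difference was -1.55 ± 0.39. Its main transcript, Tnfrsf23-201 with 86.8% of the counts, is annotated as a target of nonsense-mediated decay in GENCODE, and 26.6% of the gene's 31-base words also occur in Tnfrsf22, the neighbouring decoy receptor, so reads can be split between them. Tnfrsf22 itself had a median of 0.219 CPM in transplant and 0.677 CPM in empty scaffold livers (log2 -1.07 ± 0.39, adjusted p = 0.0872, edgeR), and the full TRAIL receptor Tnfrsf10b did not pass either (-0.59 ± 0.32, adjusted p = 0.225). Of 15 other tested TNF receptor superfamily genes 5 fell and none rose (median log2 -0.41), beside 4.23% of all tested genes called lower. Among the 5 were Tnfrsf19 (-0.62 ± 0.12, adjusted p = 0.0156), the death receptor Tnfrsf21 (-0.80 ± 0.20, adjusted p = 0.0301), the neurotrophin receptor Ngfr (-0.77 ± 0.20, adjusted p = 0.0347) and the RANKL receptor Tnfrsf11a (-1.08 ± 0.29, adjusted p = 0.0385, edgeR). With length and GC trends of the libraries removed 3 of the 15 were called lower, beside 1.87% of all tested genes. None of 14 other tested TRAIL pathway genes was called in either direction.

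Ly6d is a small surface protein held by a lipid anchor, known as a marker of B-lineage progenitors and keratinocytes. The 6 transplant libraries held 3.43, 3.35, 7.28, 15.6, 3.15 and 4.72 CPM, against 5.16, 7.92, 29.9, 16.4, 13.8, 34.5, 20.6 and 48.1 CPM in empty scaffold replicates 1 to 8. The groups overlapped: transplant replicates 3 and 4 lay above the lowest empty scaffold library, and the medians were 4.08 CPM in transplant and 18.5 CPM in empty scaffold livers. Within the empty scaffold group replicates 3, 6 and 8 were high and replicates 1 and 2 low. The difference was -1.83 ± 0.53. Ly6e, another member of the family, fell (121 ± 20.2 CPM in transplant, 161 ± 16.4 CPM in empty scaffold livers, log2 -0.41 ± 0.11, adjusted p = 0.0355, edgeR). It was the 1 gene called of 7 other tested genes of the Ly6 and uPAR family, beside 4.23% of all tested genes called lower. Ly6a did not pass (-0.07 ± 0.21, adjusted p = 0.845).

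Fam83a encodes a scaffold protein that binds casein kinase 1. Its levels were 0.343, 0.245, 0.517, 1.04, 0.306 and 0.437 CPM in transplant replicates 1 to 6, against 0.669, 0.563, 2.44, 1.42, 0.518, 2.00, 1.30 and 2.22 CPM in empty scaffold replicates 1 to 8. Transplant replicate 4 lay above 3 empty scaffold libraries, the other 5 transplant libraries lay below all 8, and the difference was -1.54 ± 0.42. Transplant replicate 3 (0.517 CPM) and empty scaffold replicate 5 (0.518 CPM) were level, with 12 counts each. Its relatives Fam83f (-0.20 ± 0.29, adjusted p = 0.675) and Fam83h (-0.23 ± 0.14, adjusted p = 0.265) did not pass the edgeR test, and none of the 3 other tested family members was called.

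Sprr1a encodes a small proline-rich protein that transglutaminases cross-link into the cornified envelope of squamous epithelium and that is known to be induced in injured neurons. It had 0.0763, 0.0408, 0.215, 0.645, 0 and 0.481 CPM in transplant replicates 1 to 6, against 0.127, 0.458, 1.93, 1.61, 0.346, 1.80, 1.12 and 5.42 CPM in empty scaffold replicates 1 to 8. Only 0 to 13 counts per transplant library stand behind these levels, and the count of 0 in replicate 5 allows up to 0.131 CPM (3 counts, counting error only). The groups overlapped, the empty scaffold replicate 8 was far above the rest, and the difference of -2.75 ± 0.81, the largest of the 10, was -2.15 without that library. The paralog Sprr1b reached no more than 0.0437 CPM in any library, and none of 5 other tested cornified envelope genes was called. Of 13 markers of stratified epithelium, Krt5, Krt15 and Dsc3 had no count in any library and Krt14, Krt17, Krt6a, Trp63 and Dsg3 had 3 counts or fewer in every library. The markers with a count summed to 184 to 241 CPM in transplant and 138 to 219 CPM in empty scaffold livers. Over the 14 libraries with group means removed, the mean of the 5 tested markers had r of 0.59 with Sprr1a. With the members it ran from -0.30 (Robo1) to 0.66 (Ly6d).

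The promoter of Sprr1a is shown because it is the member with the largest log2 difference, and those of Gprc5b and Clip2 because these 2 members varied closely together. Each runs from 250 bases before to 50 bases after the RefSeq start, 5′ to 3′ in the direction of transcription (all 3 genes lie on the minus strand), in build GRCm38.p6, at chr3:92485832-92486131 for Sprr1a, chr7:118995162-118995461 for Gprc5b and chr5:134552385-134552684 for Clip2. Capitals mark the TATA box TATAAA, the CCAAT box, the GC box GGGCGG and the AP-1 site TGANTCA, on either strand.
Sprr1a: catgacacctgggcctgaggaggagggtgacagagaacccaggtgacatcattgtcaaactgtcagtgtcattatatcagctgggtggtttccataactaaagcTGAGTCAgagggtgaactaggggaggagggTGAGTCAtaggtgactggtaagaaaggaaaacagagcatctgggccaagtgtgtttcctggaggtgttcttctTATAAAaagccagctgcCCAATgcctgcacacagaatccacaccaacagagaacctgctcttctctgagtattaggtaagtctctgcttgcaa
Gprc5b: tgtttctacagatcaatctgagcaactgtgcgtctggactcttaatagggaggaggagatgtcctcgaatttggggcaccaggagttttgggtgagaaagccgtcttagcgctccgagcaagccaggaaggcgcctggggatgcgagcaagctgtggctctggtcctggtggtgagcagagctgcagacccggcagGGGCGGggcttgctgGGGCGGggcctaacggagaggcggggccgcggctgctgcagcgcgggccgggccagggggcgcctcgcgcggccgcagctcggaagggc
Clip2: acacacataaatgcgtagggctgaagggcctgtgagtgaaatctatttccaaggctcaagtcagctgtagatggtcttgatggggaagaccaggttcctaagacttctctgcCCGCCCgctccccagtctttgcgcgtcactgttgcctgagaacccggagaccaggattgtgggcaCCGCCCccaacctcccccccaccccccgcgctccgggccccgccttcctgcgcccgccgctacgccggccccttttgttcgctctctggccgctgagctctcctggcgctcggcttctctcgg
The Sprr1a promoter holds 2 AP-1 sites, which begin 146 and 116 bases before the start, a TATAAA at 43 bases and a CCAAT at 26 bases. Among 32851 promoters of this length in the RefSeq table, 7.8% hold TGANTCA and 13.6% hold TATAAA. The promoters of Gprc5b and Clip2 hold no TATAAA and 2 GC boxes each, a motif present in 35.7% of all promoters, with a GC content of 66.3% and 63.3% beside a median of 52.7% over all promoters. Promoters were found for 7 of the 10 members (not for Ly6d, Fam83a and Kif21b). AP-1 sites were found in Sprr1a alone of the 7, GC boxes in 3 and CCAAT (37.4% of all promoters) in 4. Of 4 further motifs searched on both strands, none occurred in the 7: AGGTCA, bound by nuclear receptors (16.3% of all promoters), GGAATG, a TEAD site (14.7%), TTCNNNGAA, a STAT palindrome (8.3%), and CACGTG, an E-box (7.2%). A match is a run of letters and not a site shown to be bound.

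The remaining 3 members belong to microtubules and centrioles. Clip2 encodes a linker protein that binds growing microtubule ends, abundant in brain. It had 1.41, 1.86 and 2.93 CPM in transplant livers, against 3.85, 4.41 and 6.89 CPM in empty scaffold livers (lowest, median and highest). The groups did not overlap, and the difference of -1.34 ± 0.18 had the smallest standard error of the 10. With Corin and Robo1 it makes 3 members whose groups do not overlap in this direction, which holds for 0.701% of all tested genes and is part of what the members were picked for. Its close relative Clip1 did not pass (24.0 ± 3.35 CPM in transplant, 26.5 ± 3.90 CPM in empty scaffold livers, adjusted p = 0.389, edgeR), nor did Clip3 (0.312 ± 0.196 CPM in transplant, 0.698 ± 0.276 CPM in empty scaffold livers, log2 -1.14 ± 0.38, adjusted p = 0.0660) or Clip4 (adjusted p = 0.904). None of 15 other tested genes of microtubule plus end proteins was called.

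Kif21b encodes a kinesin motor of neurons and lymphocytes that also restrains microtubule growth. Its levels were 0.724, 0.327, 0.603, 0.744, 0.656 and 0.393 CPM in transplant replicates 1 to 6, against 1.43, 2.01, 2.34, 1.64, 1.60, 0.652, 0.769 and 1.94 CPM in empty scaffold replicates 1 to 8. One empty scaffold library (replicate 6) lay within the transplant range and replicate 7 just above it, while the other 6 were at 1.43 CPM or more. The difference was -1.44 ± 0.29. Its paralog Kif21a, at 34.4 ± 7.48 CPM in transplant and 40.3 ± 3.18 CPM in empty scaffold livers, did not pass (adjusted p = 0.215, edgeR), and none of 22 other tested kinesins was called.

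Ccdc120 encodes a protein of the subdistal appendages of the mother centriole, where microtubules are anchored. It had 0.419, 0.367, 0.345, 1.14, 0.0874 and 0.612 CPM in transplant replicates 1 to 6, against 0.669, 0.563, 2.20, 1.08, 1.21, 1.55, 1.30 and 2.69 CPM in empty scaffold replicates 1 to 8. Transplant replicates 4 and 6 overlapped the lowest 3 empty scaffold libraries, and the difference was -1.52 ± 0.43. Of 12 other tested genes for subdistal appendage and associated centriole proteins 2 fell and none rose, beside 4.23% of all tested genes called lower. The 2 were Nin, the ninein that anchors microtubules there (1.06 ± 0.213 CPM in transplant, 1.96 ± 0.557 CPM in empty scaffold livers, log2 -0.89 ± 0.21, adjusted p = 0.0238), and Cc2d2a of the ciliary transition zone (-0.60 ± 0.18, adjusted p = 0.0470, edgeR).

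The sample titles carry numbers of unstated meaning, 100 or above in 3 transplant and 4 empty scaffold samples and below 100 in 3 and 4. Libraries of the 2 number ranges differed in many genes: with the group in the model, 23.4% of all tested genes were called between them. None of the 10 members was, though Tnfrsf23 was called without empty scaffold replicate 3 (log2 -0.98, adjusted p = 0.035, against -0.64 and 0.168 over all libraries, edgeR). The members were not chosen on this contrast, but steadiness may have entered their choice, so the lack of calls is not independent of it. Their differences, 100 or above minus below 100, ran from -1.22 ± 0.71 (Sprr1a, adjusted p = 0.227) and -0.88 ± 0.48 (Ly6d, adjusted p = 0.203) to 0.33 ± 0.27 (Kif21b, adjusted p = 0.404, edgeR). They were negative for 8 of the 10, and 49.3% of all tested genes were negative. Most members varied together from library to library, so these 8 are not separate observations of a shift between the ranges. Ranked from the lowest among 13127 tested genes, Sprr1a stood 37, Ly6d 108, Tnfrsf23 305 and Ccdc120 348, while Robo1 stood 9327 and Kif21b 10991. The median level was 1.18 CPM for the members and 11.4 CPM for all tested genes, so the lack of calls does not show that the ranges were alike.

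Within each range every member was lower in transplant livers. Each range is a part of the libraries on which the members were chosen, so the members' falls and calls here carry no independent test. Among samples numbered 100 or above the differences ran from -3.22 ± 0.97 (Sprr1a) to -1.41 ± 0.22 (Clip2), and 9 of the 10 were called lower, all but Ly6d, beside 12.1% of all tested genes. Among samples numbered below 100 they ran from -2.56 ± 1.15 (Sprr1a) to -0.94 ± 0.25 (Robo1), and none of the 10 was called, in a fit that called 0.00762% of all genes lower. The test of the interaction of group and range called 0% of all genes in edgeR, 2275 genes having an unadjusted p under 0.05, while DESeq2 called 185. Gprc5b differed most between the ranges, with -2.90 ± 0.35 among samples numbered 100 or above and -1.34 ± 0.51 below 100 (interaction -1.54 ± 0.68, adjusted p = 0.271, edgeR), and its interaction without transplant replicate 4 was -0.77. Steadiness may have entered the choice of the members, so the lack of calls here is not independent of it.

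**Figure D2:**
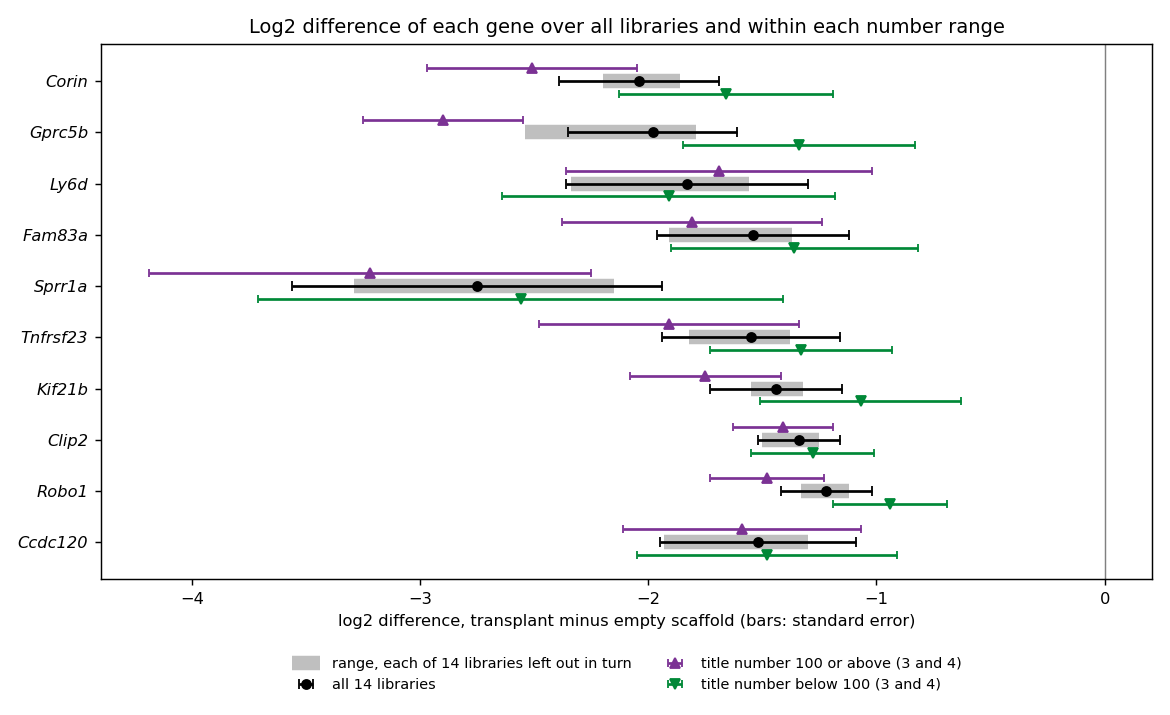
Log2 difference of each member (horizontal axis, transplant minus empty scaffold, bars are standard errors) over all 14 libraries (black), among samples numbered 100 or above (purple) and below 100 (green), with the range over fits that leave out each library in turn (grey). All values lie below 0, and those of Gprc5b lie farthest apart, at -2.90 and -1.34 in the 2 ranges.

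Beyond the group difference, the members varied together. After each group's mean was taken out, 44 of the 45 pairs of members had a positive Pearson correlation of log2 CPM over the 14 libraries, with a median of 0.62, and 0.66 when the means of group and number range were both taken out. The closest pairs were Ly6d and Fam83a (r = 0.90), Ly6d and Sprr1a (0.89), Fam83a and Sprr1a (0.87) and Gprc5b and Clip2 (0.86). The 28 pairs without Kif21b and Robo1 had r from 0.39 to 0.90. Kif21b had r from -0.21 to 0.31 against the other 9, the highest with Robo1, where r was -0.71 within the transplant group (rho = -0.66, n = 6, exact adjusted p = 0.272) and 0.82 within the empty scaffold group (rho = 0.81, n = 8, exact adjusted p = 0.0580). Robo1 had a median of 0.31 and was nearest to Gprc5b (0.62) and Clip2 (0.56). With the means of number range taken out as well, r ran from 0.12 (Kif21b) to 0.74 (Clip2) for Robo1. For Corin it then ran from 0.03 (Kif21b) to 0.66 (Fam83a). All genes of a library share its depth and scaling, and the same values over all pairs of tested genes were not computed. These r values are therefore a description and are not read as a trait particular to the members.

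Tested within each group by exact two-sided permutation, with adjustment over 90 tests (45 pairs in 2 groups), 2 pairs passed in the transplant group and 7 in the empty scaffold group. Gprc5b and Clip2 passed in the transplant group (Pearson's r = 0.96, rho = 1, n = 6, exact p = 0.00139, adjusted p = 0.0208) and not in the empty scaffold group (r = 0.75, rho = 0.57, n = 8, exact adjusted p = 0.147). Ly6d and Fam83a had r = 0.97 and rho = 0.94 in the transplant group (exact adjusted p = 0.0454) and r = 0.86 and rho = 0.81 in the empty scaffold group (exact adjusted p = 0.0580). Without the 2 transplant libraries farthest from the median of the first-named gene, r over the other 4 was 0.68 for Gprc5b and Clip2 and 0.82 for Ly6d and Fam83a. Ly6d and Tnfrsf23 had r = 0.44 and rho = 0.26 in the transplant group (exact adjusted p = 0.528), and r = 0.97 and rho = 0.93 in the empty scaffold group (exact adjusted p = 0.0134), where r was 0.94 without the 2 libraries farthest from the median. Whether any pair's correlation differs between the groups was not tested. The permutations ran freely across the title number ranges, so a shift shared by the libraries of a range can add to a pass. The share of all gene pairs that would pass was not computed.

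Some libraries were the highest or lowest of their group in several members. Transplant replicate 4 was the highest of the transplant libraries in 8 of 10 members and in 16.3% of all tested genes. Among empty scaffold libraries, replicate 8 was the highest in 5 members (8.9% of all genes) and replicate 3 in 4 (14.7%), while replicate 1 was the lowest in 4 (9.1%). Transplant replicate 1 was the lowest of its group in 5 members (21.4% of all genes).

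**Figure D3:**
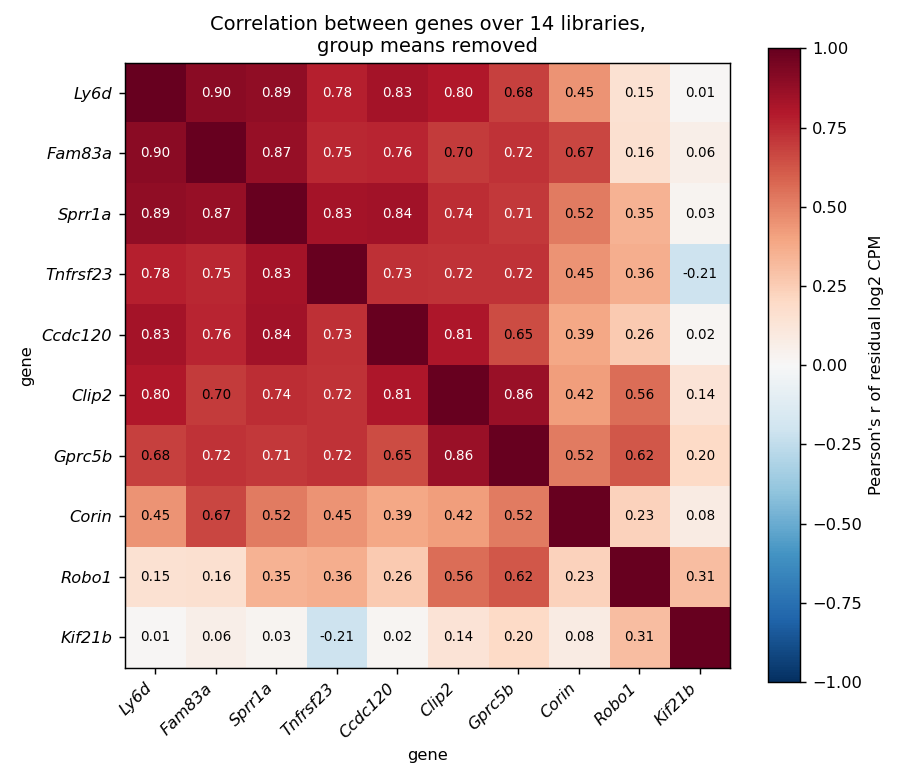
Pearson's r between each pair of members over the 14 libraries, computed on log2 CPM after each group's mean was removed (colour scale from -1 to 1, values printed). Ly6d, Fam83a, Sprr1a, Tnfrsf23, Ccdc120, Clip2 and Gprc5b form a block with r of 0.65 or more, and Kif21b lies between -0.21 and 0.31.

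The genes whose pattern over the 14 libraries was most like that of a member, by the same residual correlation over all tested genes, included some genes of stored fat. For each member the 3 highest r over 13127 tested genes were taken, so their size comes in part from that choice. The r that other genes would reach this way, and the share of fat genes over all genes, were not computed. Nearest to Fam83a were Cidec (r = 0.94), which fuses lipid droplets, Cntnap1 (0.93), an axonal adhesion protein, and Cidea (0.91), a relative of Cidec. Nearest to Ly6d were Apoa4 (0.93), an apolipoprotein known to rise in fatty mouse liver, Gm765 (0.93) and Tmem43 (0.92). Sprr1a was nearest to F2r (0.95), the thrombin receptor, Slc35f2 (0.92) and Tbc1d31 (0.91).

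Cidec varied widely within both groups, with 15.1, 9.88, 19.9, 86.8, 13.3 and 41.0 CPM in transplant replicates 1 to 6, against 18.2, 13.4, 62.0, 37.8, 13.0, 89.9, 49.1 and 119 CPM in empty scaffold replicates 1 to 8. The groups overlapped almost throughout, and Cidec did not pass between them (log2 -0.70 ± 0.62, adjusted p = 0.461, edgeR). Neither Apoa4 (log2 -0.62 ± 0.56, adjusted p = 0.470) nor Cidea (-1.39 ± 0.86, adjusted p = 0.289) passed between the groups in edgeR. Of the other genes nearest to Ly6d, Fam83a and Sprr1a, Tmem43 (-0.50 ± 0.12, adjusted p = 0.0306) and Slc35f2 (-1.18 ± 0.28, adjusted p = 0.0244) fell, and Gm765, Cntnap1, F2r and Tbc1d31 did not pass.

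**Figure D4:**
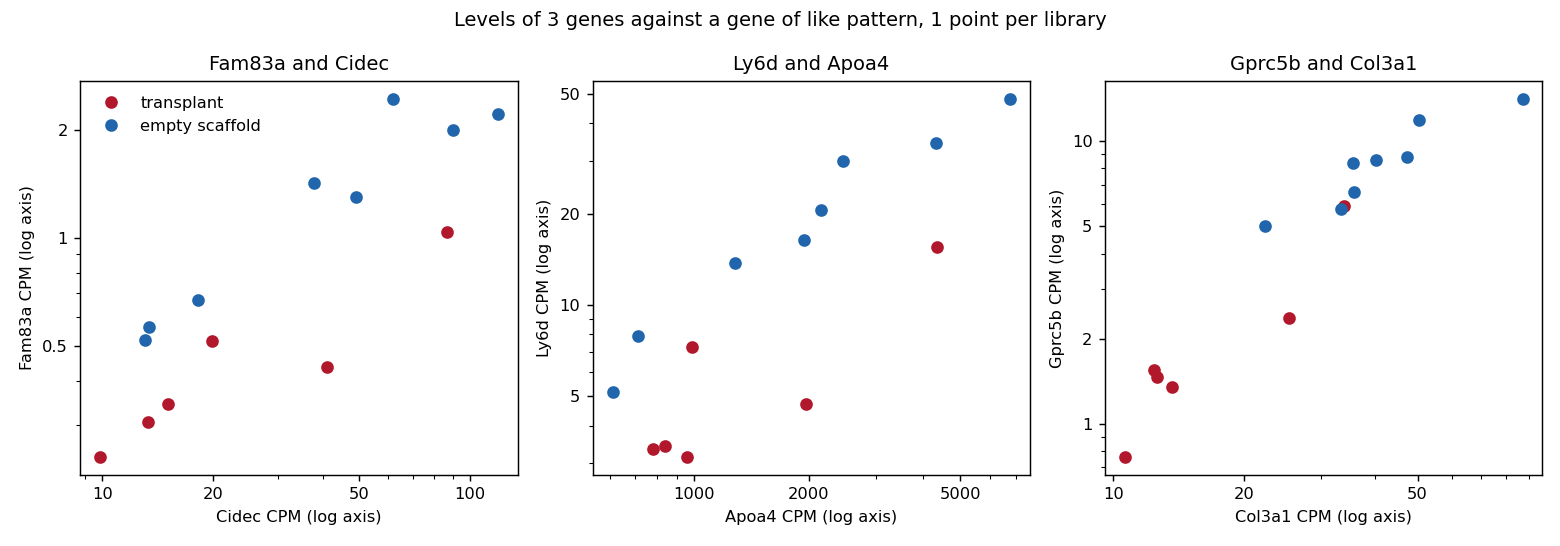
CPM of Fam83a, Ly6d and Gprc5b (vertical, log axes) against CPM of Cidec, Apoa4 and Col3a1 (horizontal, log axes), 1 point per library, transplant in red and empty scaffold in blue. Within each group the levels climb together, as the residual r of 0.94, 0.93 and 0.91 describe, and Cidec spans 9.88 to 86.8 CPM in transplant and 13.0 to 119 CPM in empty scaffold livers. Cidec, Apoa4 and Col3a1 were picked for their high r.

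For the other members, Gprc5b was nearest to Dcaf12l1 (r = 0.92), to the fibrillar collagen Col3a1 (0.91) and to Acbd3 (0.90), a Golgi protein. Col3a1 fell between the groups (18.1 ± 9.35 CPM in transplant, 44.0 ± 19.5 CPM in empty scaffold livers, log2 -1.29 ± 0.31, adjusted p = 0.0300, edgeR), and so did Dcaf12l1 (-0.59 ± 0.16, adjusted p = 0.0394), while Acbd3 did not pass (16.9 ± 2.51 CPM in transplant, 16.9 ± 1.07 CPM in empty scaffold livers, adjusted p = 0.965). Corin was nearest to Gpd2, the mitochondrial glycerol-3-phosphate dehydrogenase (0.87), Osbpl3 (0.85) and Rnf145 (0.83), and Tnfrsf23 to the augmin subunit Haus8, the hexokinase Hk2 and the protease Htra3 (0.88 each). Clip2 was nearest to the transporter gene Slc44a3 (0.89), Rab34 (0.87) and Gria3 (0.87), Ccdc120 to Maged2 (0.91), Slc35f2 (0.90) and Dcaf15 (0.90), and Robo1 to the WNT receptor Fzd1 (0.90), the sulfatase Arsb (0.89) and Cenpj of the centriole (0.88). Kif21b was nearest to Tnfrsf11b, the decoy receptor osteoprotegerin (0.92), 4933411K16Rik (0.88) and Fut1 (0.87). Of the genes nearest to these last 6 members, Rnf145, Hk2, Slc44a3, Maged2, Fzd1 and Arsb fell between the groups as well, with log2 differences from -1.30 (Hk2) to -0.37 (Arsb), and the others did not pass, except Slc35f2 given above.

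The means of gene lists were set against the members in the same way. The mean of 18 tested genes of fatty liver and PPARG response followed Fam83a (residual r = 0.91), Sprr1a (0.88), Ly6d (0.86) and Ccdc120 (0.78), and not Robo1 (0.12) or Kif21b (-0.12). Of these 18 genes 3 fell and 1 rose between the groups (median log2 -0.39), beside 4.23% of all tested genes called lower and 3.31% called higher. Pparg (12.2 ± 1.34 CPM in transplant, 16.8 ± 2.25 CPM in empty scaffold livers, adjusted p = 0.0240), the desaturases Scd1 (2798 ± 865 CPM in transplant, 5494 ± 1652 CPM in empty scaffold livers, adjusted p = 0.0298) and Scd2 (adjusted p = 0.0401) fell, and the thioesterase Acot1 (110 ± 44.4 CPM in transplant, 58.3 ± 17.3 CPM in empty scaffold livers, adjusted p = 0.0368, edgeR) rose. The mean of 28 genes of hepatocyte injury and dedifferentiation followed Ly6d (r = 0.96), Sprr1a (0.88) and Fam83a (0.84), and 1 of the 28 was called between the groups, Golm1, a Golgi membrane protein, which fell (-0.62 ± 0.19, adjusted p = 0.0492). Of 18 YAP and TEAD target genes 2 fell, the receptor kinase Axl (-0.97 ± 0.18, adjusted p = 0.0133) and Arhgef17 (-0.73 ± 0.22, adjusted p = 0.0491, edgeR), again beside 4.23% of all tested genes. The mean of the 18 had residual r to the members from 0.08 (Tnfrsf23) to 0.55 (Corin). With the means of group and number range both taken out, that range was 0.24 (Kif21b) to 0.75 (Corin and Ly6d). High r values were not particular to the fatty liver list. The mean of the 12 other tested SLIT and ROBO pathway genes had residual r of 0.56 (Ly6d) to 0.75 (Tnfrsf23) with all members but Kif21b (-0.02).

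Some markers of liver cells were called between the groups, beside 4.23% of all tested genes called lower and 3.31% called higher. With length and GC trends of the libraries removed, 7 Kupffer cell markers were called lower, and 0 hepatocyte, stellate cell and endothelial markers were called. The part of these cells in the members' differences was not tested. Hepatocyte markers were abundant in every library, with counts for all 15 whose symbols matched the annotation (the listed Tf is not its symbol for transferrin), and a summed level of 124975 to 182308 CPM in transplant and 99363 to 179165 CPM in empty scaffold livers, and 2 of 15 rose (Serpina1c and Asgr1). All 20 Kupffer cell and macrophage markers were detected, 7 fell, and their sum was 200 to 298 CPM in transplant and 242 to 608 CPM in empty scaffold livers. Stellate cell and fibroblast markers summed to 261 to 463 CPM in transplant and 302 to 584 CPM in empty scaffold livers, and 5 of 19 tested fell. Endothelial markers summed to 204 to 317 CPM in transplant and 232 to 412 CPM in empty scaffold livers, and 2 of 19 fell. Over the 14 libraries with group means removed, the mean of the Kupffer cell list had r of -0.09 (Robo1) to 0.57 (Ly6d) with the members, that of the stellate cell list 0.29 (Robo1) to 0.64 (Fam83a) and that of the endothelial list -0.11 (Robo1) to 0.55 (Corin). With the means of number range taken out as well, r ran from 0.03 (Robo1) to 0.74 (Kif21b) for the Kupffer cell list, 0.08 (Robo1) to 0.79 (Fam83a and Sprr1a) for the stellate cell list and -0.27 (Robo1) to 0.49 (Corin) for the endothelial list. The mean of the hepatocyte markers was negatively correlated with all 10 members, from -0.50 (Fam83a) to -0.19 (Tnfrsf23), and from -0.73 (Ccdc120) to -0.39 (Kif21b) with number range taken out. That of 6 adipocyte markers, of which Cidec, Fabp4 and Cfd are also in the fatty liver list, had r of -0.08 (Kif21b) to 0.77 (Ccdc120), and of 0.65 or more with 7 members, and their part was not tested either.

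In the remaining marker lists few genes were called, beside 4.23% of all tested genes called lower and 3.31% called higher. Of 14 tested cholangiocyte markers 1 rose (Onecut1), of 2 tested neutrophil markers 1 fell (Csf3r) and of 2 tested neural markers 1 fell (Mbp, with Sox10, S100b, Nefm and Snap25 at 3 counts or fewer in every library). None of 10 T and natural killer cell, 8 B and plasma cell, 6 adipocyte, 6 mesothelial and 5 stratified epithelium markers tested was called. With group means removed, r with the members ran from -0.07 (Kif21b) to 0.63 (Sprr1a) for the cholangiocyte list. It ran from -0.25 (Robo1) to 0.52 (Kif21b) for the T and natural killer cell list and -0.07 (Robo1) to 0.46 (Tnfrsf23) for the B and plasma cell list. With number range taken out as well, Kif21b had 0.60 and 0.66 with these last 2 lists. Their part was not tested.

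How far the members' calls held depended on the libraries. The fits below reuse the libraries and the contrast on which the members were chosen, so the members' calls in them are a description. Corin, Gprc5b, Kif21b, Clip2 and Robo1 were called lower in each of 14 fits that left out 1 library. Ly6d and Sprr1a were called in 4 of these, Fam83a and Ccdc120 in 6 and Tnfrsf23 in 8. The share of all tested genes called lower in all 14 fits was not computed. Without transplant replicate 1, 3 or 5, or without empty scaffold replicate 3, 4 or 8, only the first 5 were called, and 0.663% to 1.75% of all tested genes were called lower in those fits. With length and GC trends of the libraries removed, 6 of the 10 were called, beside 1.87% of all genes, and Fam83a (log2 -1.48), Sprr1a (-3.02), Kif21b (-1.03) and Ccdc120 (-1.35) were not. In that fit, of the genes named above from the lists, Ly6e, Tnfrsf19, Pak1, Pparg, Axl and Onecut1 were also called, Tnfrsf21, Ngfr, Tnfrsf11a, Srgap2, Nin, Cc2d2a, Scd1, Scd2, Acot1, Arhgef17, Golm1, Col3a1, Serpina1c, Asgr1, Csf3r and Mbp were not, and 7 Kupffer cell, 0 stellate cell and 0 endothelial markers were called lower.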

How the data were processed

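The members and gene lists were chosen with earlier results of these data known. Per the labels' protocols, stranded mRNA libraries were made from liver RNA. The submitters' processing notes name fastp 0.20, kallisto 0.46.1, DESeq2 1.38 and GRCm39; the sources used here do not give the annotation release, kallisto options or strand setting. For each sample the authors deposited, per the file headers, estimated counts, TPM, lengths and effective lengths (other numbers per transcript, in bases) for 128803 transcripts. Identifiers were matched to GENCODE M21 (GRCm38) for names and gene membership only: 120608 (93.6%) matched. Estimated counts were summed per gene, rounded, filtered with filterByExpr (13127 genes kept), scaled by TMM and tested with edgeR 4.0.16 in R 4.3.3 (quasi-likelihood, robust, two-sided, Benjamini-Hochberg, threshold 0.05), by group, by title number range with the group as a term, and by their interaction. P-values reflect spread among samples, which may be technical. Correlations used log2 CPM with a prior count of 2. Named genes are the 10 members, listed paralogs, up to 4 called genes per list with the smallest adjusted p, the 3 genes most like each member, and transcripts with at least 10% of a member's counts. Lists numbered 26, of which 12 hold cell type markers. Alternatives were DESeq2 1.42.0, its size factors, no filter, effective length offsets, splines on length and GC (4 degrees of freedom), each library left out, number range as covariate, each range or group alone, and limma 3.58.1 on log2(TPM + 0.1). Scripts were tested on simulated data. Promoters are from RefSeq, GRCm38.p6.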

Additional observations from a re-analysis of the deposited data

Results flagged for a closer look

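Of 20 sets of values (10 members in 2 groups), 5 held a library whose gap to the nearest other library was large beside the range of its group by Dixon's test. That test flags about 1 in 20 sets by chance where values are normally spread and sets are independent. These CPM were not log transformed and most members varied together, so 5 of 20 cannot be set against that rate. Transplant replicate 4 stood apart in 4 of the 5. Gprc5b reached 5.90 CPM there, with the next transplant library at 2.36 CPM. Ly6d reached 15.6 CPM, with the next at 7.28 CPM. Fam83a reached 1.04 CPM, with the next at 0.517 CPM, and Clip2 reached 2.93 CPM, with the next at 1.97 CPM. The fifth was Sprr1a in empty scaffold replicate 8, at 5.42 CPM, with the next empty scaffold library at 1.93 CPM.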

How the results depend on the processing

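All 10 members kept a negative log2 difference in each of 23 alternative fits of the group contrast, which reuse the libraries that chose them. The share of tested genes called moved more. Genes called lower (4.23%) and higher (3.31%) between the groups were 7.11% and 7.86% with DESeq2, 1.55% and 1.13% without the filter, 1.36% and 1.04% with effective length offsets, 1.87% and 1.14% with length and GC trends removed, 9.08% and 10.6% with the number range as covariate, 12.1% and 14.2% among samples numbered 100 or above, 0.00762% and 0.0152% below 100, and 19.3% and 0.236% with limma on log2(TPM + 0.1), where the median of all genes was -0.43. Leaving out each library gave 0.663% to 7.11% lower and 0.381% to 7.47% higher, the lowest without transplant replicate 1 and the highest without empty scaffold replicate 7. Genes called between the number ranges (23.4%) were 9.89% without the filter, 13% with trends removed, 0.305% in transplant libraries alone and 15.9% to 35.2% with 1 library left out. Genes called for the interaction (0%) were 2.23% with DESeq2, 0.032% without the filter and 0% to 0.0533% with 1 library left out. Members called lower (10) were 8 with DESeq2 size factors, 8 without the filter, 6 with effective length offsets and 0 among samples numbered below 100. For the number range, Tnfrsf23 (-0.64, not called) was called without empty scaffold replicate 3 (-0.98). Some uncalled values changed sign. For the number range, Robo1 became -0.07 with trends removed and -0.14 in transplant libraries alone, Kif21b -0.12 in transplant libraries alone, and Corin 0.04 and Gprc5b 0.20 in empty scaffold libraries alone; Corin ran from -0.40 to 0.06 with 1 library left out. For the interaction, Tnfrsf23 became 0.01 and Ccdc120 0.07 with effective length offsets, and Ly6d -0.08, Clip2 0.25 and Ccdc120 0.12 with trends removed. With 1 library left out the interaction ran from -0.22 to 1.23 in Ly6d, -0.74 to 0.23 in Fam83a, -0.32 to 0.19 in Clip2 and -0.61 to 0.70 in Ccdc120. The cause of these shifts was not tested. No paired analysis was possible because replicate numbers follow accession order and pair no samples. Low counts per transplant library limit Sprr1a (0 to 13), Ccdc120 (2 to 23), Tnfrsf23 (5 to 20), Fam83a (6 to 21), Corin (8 to 14) and Kif21b (8 to 19).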
